A study of Rattus norvegicus with 12 samples.

Results

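Fatty acid binding proteins are small proteins of the cytosol that hold a fatty acid, or another lipid ligand, in a barrel-shaped pocket. They carry it from the membrane to mitochondria, lipid droplets and the nucleus, where several members hand ligands to nuclear receptors of the PPAR family. The members are named for the tissue in which each was first found, and Fabp4 is a textbook target gene of PPARgamma, the receptor that rosiglitazone activates. Described here are 5 genes of the family, Fabp1 (liver form), Fabp3 (heart form), Fabp4 (fat cell form), Fabp5 (epidermal form) and Fabp7 (brain form). They were chosen by symbol in the array annotation, with earlier results of these data known, out of 14217 genes that had a probe set of their own. Each had 1 probe set, so 5 of the 31042 probe sets other than array controls are described.

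The samples were kidney RNA of 12 male Zucker rats, 1 array per rat, with 3 rats in each group. Obese rats ate ground chow with rosiglitazone at 3 mg per kg body weight (obese rosiglitazone) or the chow alone (obese control). Lean rats ate the same diets (lean rosiglitazone and lean control), all for 12 weeks. The labels give body type and no genotype. As background, obesity in this strain comes from a recessive mutation of the leptin receptor, and lean littermates can carry 1 copy or none. The rats' age is not given in the sources used here, nor is the handling of fat around the kidney.

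Kidney markers were bright on all 12 arrays. Slc34a1, the phosphate transporter of the proximal tubule, had signals of 8751 to 15565, and Umod, the uromodulin of the thick ascending limb, 16369 to 23092. Array medians lay between 204 and 239, and the ratio of 3′ to 5′ Gapdh signal, a measure of RNA integrity, between 1.07 and 1.32 with overlapping ranges in all groups. Array lean rosiglitazone 3 stood apart on the second principal component, at −35.64 against −13.39 to 17.80 for the others. A control spiked in at hybridization, cre, parted the arrays into a higher class of 5 (13509 to 15051) and a lower class of 7 (9164 to 11125). The higher class held 0 of 3 obese rosiglitazone arrays, 1 of 3 obese control arrays and 2 of 3 arrays of each lean group. With 3 arrays a group, precision is limited by their number. Because whole kidney RNA was measured, fewer cells of a type and less RNA per cell cannot be told apart.

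Of the family, Fabp3, Fabp4 and Fabp5 were detected and Fabp1 and Fabp7 were at background. The mean level of Fabp3 over the 12 arrays stood at the 98.2nd percentile of all probe sets, that of Fabp5 at the 97.1st and that of Fabp4 at the 91.8th, while Fabp1 and Fabp7 stood at the 13.4th and 7.64th. These percentiles place each probe set among all others and do not rank the genes against each other, since probe sets differ in how brightly they bind. Background was read from 15 probe sets for Bacillus genes, whose signals ran from 1.04 to 115.7 with a median of 8.94. A group with all 3 arrays at or under 115.7 is called at background here.

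Fabp4 varied most. It encodes the carrier of fat cells, and as background it is also made by capillary endothelium and macrophages. Its signals were 4111, 2862 and 2776 in obese rosiglitazone rats, against 216, 502 and 492 in obese control rats. They were 4343, 7256 and 3864 in lean rosiglitazone rats, against 1068, 1065 and 2408 in lean control rats. Within each body type, every rat on the drug lay above every rat on control diet. Obese control rats lay below all other rats, and lean control 3 lay far above the 2 other rats of its group. The means were ordered from lean rosiglitazone (5154 ± 1836) through obese rosiglitazone (3250 ± 747) and lean control (1514 ± 774) to obese control (403 ± 162; SD, n = 3 each). Between the neighbours in that order, the 2 drug groups overlapped, the next 2 did not overlap but were not tested against each other, and the lowest differed by the test given below.

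Fabp5, the form first described in skin and found in many cell types including endothelium and macrophages, had another pattern. Its signals were 5104, 3864 and 4185 in obese rosiglitazone rats, against 2255, 2722 and 2433 in obese control rats. They were 4554, 4925 and 3991 in lean rosiglitazone rats, against 4208, 4207 and 4107 in lean control rats. The obese control rats stood alone at the low end, and the 9 other rats formed 1 overlapping range. The means were 4490 ± 470 in lean rosiglitazone, 4384 ± 643 in obese rosiglitazone, 4174 ± 57.6 in lean control and 2470 ± 235 in obese control rats (SD, n = 3 each). The ranges of the first 3 of these overlapped.

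Fabp3, the carrier of heart and skeletal muscle, moved little. It had 4691, 5355 and 4638 in obese rosiglitazone rats, against 4456, 5396 and 5012 in obese control rats. It had 5950, 5979 and 5545 in lean rosiglitazone rats, against 4749, 4695 and 5064 in lean control rats. The lean rats on the drug were the 3 highest of the 12, and the other 3 groups overlapped. Its group means were 4894 ± 399 in obese rosiglitazone, 4955 ± 472 in obese control, 5825 ± 243 in lean rosiglitazone and 4836 ± 199 in lean control rats (SD, n = 3 each).

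**Figure D1:**
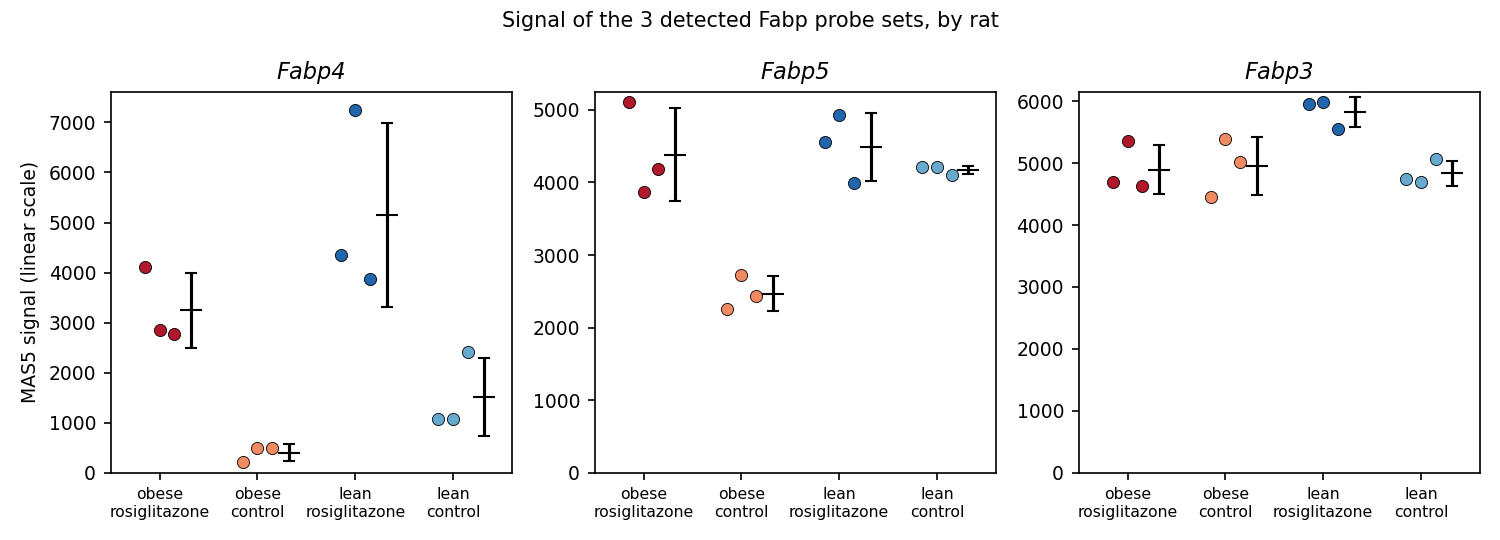
MAS5 signal on a linear axis from 0 for Fabp4, Fabp5 and Fabp3, with 1 point per rat in each of the 4 groups and the group mean with its SD (n = 3) to the right of the points. Obese control rats are lowest for Fabp4 (216 to 502) and Fabp5 (2255 to 2722), and lean rosiglitazone rats are highest for Fabp3 (5545 to 5979).

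Fabp1, the carrier of liver and intestine, which in human kidney is a protein of the proximal tubule, gave signals of 7.88 to 82.6. Its signals were 46.4, 16 and 48.1 in obese rosiglitazone rats, 23.6, 9.03 and 9.40 in obese control rats, 52.2, 58.9 and 70.7 in lean rosiglitazone rats and 59.0, 82.6 and 7.88 in lean control rats. Fabp7, the carrier of brain glia, gave signals of 1.53 to 46.2. Its group means were 8.43 ± 11.4 in obese rosiglitazone, 27.3 ± 21.7 in obese control, 27.1 ± 16.6 in lean rosiglitazone and 30.9 ± 14.7 in lean control rats (SD, n = 3 each). Both were at background in all 4 groups, so no fold change is given for them. Both fell short of the minimum set for testing, a mean log2 value of 7.32, which left 3 of the 5 members among the 18625 probe sets tested. A signal at background does not show that a gene is silent, since a probe set may bind its transcript poorly.

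**Figure D2:**
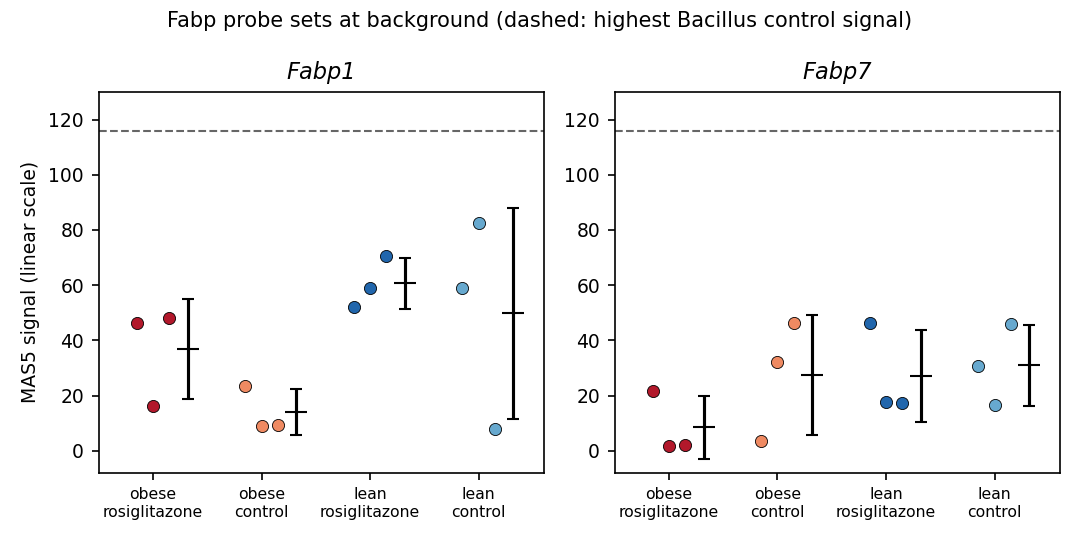
MAS5 signal on a linear axis for Fabp1 and Fabp7, with 1 point per rat, the group mean with its SD (n = 3), and a dashed line at 115.7, the highest signal of the 15 Bacillus control probe sets. All points lie under the line.

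The drug was first compared with control diet in obese rats. Fabp4 rose 8.16-fold (log2 change 3.03, SE 0.37, 95% interval 2.23 to 3.82, limma adjusted p = 0.0185) and Fabp5 rose 1.76-fold (log2 change 0.82, SE 0.11, 95% interval 0.58 to 1.06, limma adjusted p = 0.0217). Fold changes here are on the scale of log2(signal + 16) and the adjusted p covers all 18625 probe sets. Fabp3 had a log2 change of −0.016 (95% interval −0.21 to 0.18, adjusted p = 0.999), whose sign turned after quantile normalization. So 2 of the 3 members tested were called higher at an adjusted p under 0.05, where 0.0483% of all probe sets were (9 of 18625). The family was chosen with earlier results of these data known. This share and those in the comparisons below are therefore descriptions and no test of the family. Of the 13 called either way, 69.2% were higher, and of the 21 called after quantile normalization, 42.9%. By p-value, Fabp4 was the second and Fabp5 the third of all probe sets. By size of increase, Fabp4 was the second and Fabp5 stood at rank 52. For 2 of the 3 members, all rats on the drug lay above all rats on control diet, as did 5.56% of all probe sets.

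Leaving out obese rosiglitazone 1, obese rosiglitazone 3 or any of the 3 obese control arrays ended both calls, while both held without obese rosiglitazone 2 and without any of the lean arrays. In the fits that lost the calls, the adjusted p of Fabp4 ranged from 0.0502 to 0.107 with a log2 change of 2.65 to 3.23, and that of Fabp5 from 0.0502 to 0.107 with a log2 change of 0.70 to 0.89. Fabp5 was also not called (adjusted p = 0.101) when limma's trend and robust settings were off. Within the lower cre class, 3 rats on the drug against 2 on control diet, the log2 difference was 2.65 for Fabp4 and 0.75 for Fabp5. The higher class held no obese rosiglitazone array.

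In lean rats the same comparison called none of the 3 members, and 1 of all 18625 probe sets (0.00537%). Fabp4 had a log2 change of 1.81 (SE 0.37, 95% interval 1.02 to 2.61, adjusted p = 0.293), the fourth highest of all probe sets. The groups did not overlap for Fabp4 and Fabp3, 2 of the 3 members, where 4.1% of all probe sets were higher with no overlap. Fabp3 had a log2 change of 0.27 (SE 0.089, 95% interval 0.076 to 0.46, adjusted p = 0.981). Fabp5 had a log2 change of 0.10 (SE 0.11, 95% interval −0.14 to 0.34, adjusted p = 0.991), and its groups overlapped. The Fabp5 change stayed above 0 in all 22 alternative fits, from 0.031 without lean rosiglitazone 2 to 0.18 without lean rosiglitazone 3. It was 0.17 within the higher cre class, 2 rats against 2, and −0.041 within the lower, 1 rat against 1. Its 95% interval holds 0, so no direction is shown. The log2 difference of Fabp4 was 2.38 within the higher cre class, 2 rats against 2, and 0.68 within the lower class, where lean rosiglitazone 3 stood against lean control 3.

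Over both body types, the drug raised Fabp4 by 5.35-fold (log2 change 2.42, SE 0.26, 95% interval 1.86 to 2.98, limma adjusted p = 0.00324), the highest increase of all 18625 probe sets. It was the 1 member called of 3, where 0.0483% of all probe sets were called higher (9 of 18625). Fabp5 had a log2 change of 0.46 (SE 0.079, adjusted p = 0.0663) and was not called. It was called after quantile normalization (adjusted p = 0.0444), with the cre class as a covariate (0.0477) and without lean rosiglitazone 3 (0.0473). Fabp3 had a log2 change of 0.13 (SE 0.063, adjusted p = 0.996). Within the lower cre class, 7 arrays, the log2 difference of Fabp4 was 1.66.

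Whether the drug acted differently in the 2 body types was tested as the difference between its effects. The effect in obese rats exceeded that in lean rats by a log2 value of 1.22 for Fabp4 (SE 0.52, 95% interval 0.094 to 2.34) and of 0.72 for Fabp5 (SE 0.16, 95% interval 0.38 to 1.06). For Fabp3 the difference was −0.28 (SE 0.13, 95% interval −0.55 to −0.013). None was called, with adjusted p of 0.992, 0.459 and 0.992. limma called 0 of all 18625 probe sets in this comparison (0%), and 802 had an unadjusted p under 0.05. Fabp5 stood 17th by p-value, with an unadjusted p of 0.000437.

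**Figure D3:**
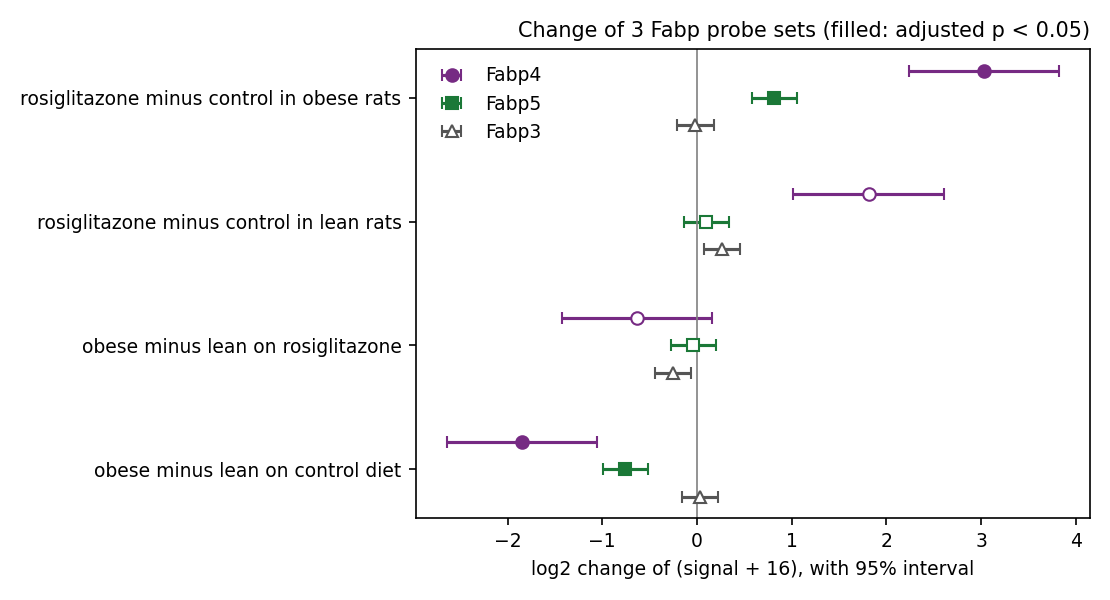
Log2 change of signal plus 16 for Fabp4, Fabp5 and Fabp3 in 4 comparisons, with 95% intervals from the limma fit and filled symbols where the adjusted p was under 0.05. Fabp4 and Fabp5 lie to the left in obese against lean rats on control diet (−1.85 and −0.76) and to the right in obese rats on the drug (3.03 and 0.82), and Fabp3 has no filled symbol.

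Obese and lean rats were compared on control diet next. Fabp4 fell by 1.85 on the log2 scale in obese rats (SE 0.37, 95% interval −2.64 to −1.05, limma adjusted p = 0.0142). Fabp5 fell by 0.76 (SE 0.11, 95% interval −0.996 to −0.52, limma adjusted p = 0.00166). Fabp3 had a log2 change of 0.031 (95% interval −0.16 to 0.22, adjusted p = 0.897), whose sign turned when arrays were centred on their median. So 2 of 3 members were called lower, against 2.58% of all probe sets, and for the same 2 the groups did not overlap, as for 11.2% of all probe sets. Of the 882 probe sets called either way, 45.5% were higher, and of the 516 called with arrays centred on their median, 34.7%. Fabp4 lost its call without obese control 1 (log2 change −1.47, adjusted p = 0.0549) and when the fit held the 6 control diet arrays only (adjusted p = 0.055). In the higher cre class, 1 obese rat against 2 lean, the log2 difference was −2.22 for Fabp4 and −0.89 for Fabp5, and in the lower class, 2 against 1, it was −2.24 and −0.67.

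On rosiglitazone, no member differed by the test, while 5% of all probe sets did (932 of 18625). The log2 change in obese against lean rats was −0.63 for Fabp4 (SE 0.37, 95% interval −1.42 to 0.16, adjusted p = 0.378), −0.039 for Fabp5 (SE 0.11, 95% interval −0.28 to 0.20, adjusted p = 0.89) and −0.25 for Fabp3 (SE 0.089, 95% interval −0.44 to −0.061, adjusted p = 0.125). The interval of Fabp4 reaches a log2 change of −1.42, so equality is not shown. Fabp4 was not called in any fit of this comparison. Its change was −0.36 without lean rosiglitazone 2, −1.02 with cre class as a covariate, and −0.27 among the lower-class arrays, 3 obese rats against 1 lean. Fabp3 was the 1 member of 3 with no overlap, lower in obese rats, as were 10.4% of all probe sets. The sign of the Fabp5 change turned after quantile normalization (0.069), so it has no settled direction. Over both diets, Fabp4 fell by 1.24 (SE 0.26, limma adjusted p = 0.00725) and Fabp5 by 0.40 (SE 0.079, limma adjusted p = 0.00407) in obese rats. These 2 of 3 members compare with 6.62% of all probe sets called lower, and Fabp3 had a log2 change of −0.11 (adjusted p = 0.279). Comparisons that share a group of rats share its error, so a low obese control group enters both the body type and the drug comparisons.

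Fabp4 and Fabp5 also share a place in the genome. In the rat gene table of the GRCr8 assembly, both lie in 1 run of lipid binding protein genes on chromosome 2, in the order Fabp12, Fabp4, Fabp9, Pmp2 and Fabp5, with no other protein coding gene between them. The other genes of the run were at background, with signals of 7.6 to 93.2 for Fabp12, 3.77 to 48.3 for Fabp9 and 26.0 to 101.5 for Pmp2. Impa1, the nearest measured coding gene on one side, had log2 changes of 0.18 in obese rats on the drug (adjusted p = 0.999) and −0.046 in obese against lean rats on control diet (adjusted p = 0.891). Pag1, the next on the other side, was at background (13.6 to 75.8). Beyond it, Zfp704 had a log2 change of 0.42 on control diet (adjusted p = 0.0332), opposite in sign to those of Fabp4 and Fabp5, while a second probe set of it had 0.069 (adjusted p = 0.856). Fabp1, Fabp3 and Fabp7 lie on other chromosomes. The gene table also lists pseudogenes of Fabp5, and whether their transcripts bind the Fabp5 probe set was not tested.

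Start regions, 250 bases before and 50 after the start that RefSeq gives, were matched for Fabp1, Fabp3 and Fabp7 (3 of 5 members). Those of Fabp1 and Fabp3 are shown because these are a member at background and a detected member that the drug comparisons did not call, and rat Fabp1 is known in liver as a gene with a PPAR site close to its start. Capitals mark matches to AGGTCA, the hexamer that PPARs and related receptors bind, or to its reverse complement TGACCT. Both are on the plus strand of GRCr8, Fabp1 at chr4:104749090-104749389 and Fabp3 at chr5:147935875-147936174, each written 5′ to 3′.
Fabp1: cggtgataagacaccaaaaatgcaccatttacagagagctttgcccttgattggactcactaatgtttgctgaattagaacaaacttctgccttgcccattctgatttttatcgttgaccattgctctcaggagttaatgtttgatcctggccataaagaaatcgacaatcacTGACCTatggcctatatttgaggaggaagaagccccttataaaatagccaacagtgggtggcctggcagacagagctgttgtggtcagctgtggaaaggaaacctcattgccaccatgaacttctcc
Fabp3: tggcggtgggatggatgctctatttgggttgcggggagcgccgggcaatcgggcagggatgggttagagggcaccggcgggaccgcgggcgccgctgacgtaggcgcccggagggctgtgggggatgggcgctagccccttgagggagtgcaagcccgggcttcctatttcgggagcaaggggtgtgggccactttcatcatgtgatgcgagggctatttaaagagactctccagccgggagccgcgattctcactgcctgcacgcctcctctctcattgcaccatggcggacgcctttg

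The Fabp1 window held 1 such hexamer, at −77 to −72 from the start and on the minus strand, and the Fabp7 window held 1 at −196 to −191, also on the minus strand. The Fabp3 window held 0. Of all 33469 rat windows of this length, 16.2% held at least 1 hexamer on either strand. The full direct repeat is 2 copies of the hexamer with any 1 base between them. Searched on both strands with no mismatch allowed, it was found in 0 of the 3 windows and in 0.0538% of all. In the Fabp1 window the marked TGACCT is followed by 1 base and then tggcct, which differs from TGACCT at 1 base. Repeats with mismatches were not searched for or counted. The TATA box core TATAAA, also searched on both strands, was found in the Fabp1 window (14.2% of all). The Fabp1 window had 44.3% G and C bases, that of Fabp7 51.3% and that of Fabp3 65.0%. A match describes these letters and is not a bound site.

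Markers of cells that make Fabp4 were set beside it. Of the fat cell markers, 15 were on the array, 14 were tested, and none was at background on all arrays. In obese rats on the drug, 0 of 14 were called, 13 had a log2 change above 0, and their median was 0.29, against −0.002 over all probe sets. Those of smallest p were Ucp1, the uncoupling protein of brown fat (adjusted p = 0.112), which was at background in obese control rats and so has no measured fold, and Thrsp, a regulator of fat synthesis (1.70, adjusted p = 0.309). The adiponectin gene Adipoq had signals of 583, 536 and 640 in obese rosiglitazone rats, against 410, 448 and 644 in obese control rats (log2 change 0.24, SE 0.18, adjusted p = 0.999). The summed signal of the 15 markers was 20320 to 24064 in obese rosiglitazone rats, against 17089 to 19384 in obese control rats, with no overlap. In lean rats on the drug it was 26632 to 41172, against 22510 to 24133 in lean control rats. There 13 of 14 had a log2 change above 0, with a median of 0.49 and 0 called. On control diet, 401 of all 18625 probe sets were called higher in obese rats and 481 lower. Of the 14 markers, 1 was called higher there (Lpl) and 3 lower, with a median of −0.38. Of these 3, Thrsp had a log2 change of −2.65 (adjusted p = 0.00293). Ucp1 (adjusted p = 0.000108) and the complement protease Cfd (adjusted p = 0.00508) were at background in obese control rats, so their fitted changes depend on the offset and only bounds are given. Both passed the minimum for testing through their signals in lean rats, so their calls are descriptions. Set against the background limit of 115.7, Ucp1 was at least 6.64-fold and Cfd at least 2.56-fold lower in obese rats. The sums on control diet were 17089 to 19384 in obese rats, against 22510 to 24133 in lean rats, with no overlap. On rosiglitazone the sums were 20320 to 24064 in obese rats, against 26632 to 41172 in lean rats, also with no overlap. There 1 of 14 markers was called higher and 5 lower in obese rats, with a median of −0.68, while Fabp4 was not called and its groups overlapped. Of all 18625 probe sets, 448 were called higher in that comparison and 484 lower. Pck1, an enzyme of fat cells and of the proximal tubule alike, gave much of each sum, at 8436 to 11974 in obese rosiglitazone, 8007 to 8861 in obese control, 9426 to 13217 in lean rosiglitazone and 7726 to 12324 in lean control rats. Without Pck1, a sum added after the data were seen, the other 14 markers gave 11885 to 12090 in obese rosiglitazone, 9082 to 10523 in obese control, 17206 to 29263 in lean rosiglitazone and 10784 to 14784 in lean control rats, and none of the 4 comparisons overlapped. The part of fat cells in the Fabp4 changes was not tested.

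Rat by rat, no fat cell marker shared the order of Fabp4 in all 4 groups. The order of the 3 rats matched in 2 groups for Adipoq, Cfd, Cidea and Ucp1, and in 1 or 0 for the rest. For 0 of the 14 tested markers was the rat of highest Fabp4 also the rat of highest marker signal in all 4 groups, or in 3 of them. Over the 12 arrays, Pearson's r of log2 values between Fabp4 and a marker had a median of 0.63 (range 0.030 to 0.81). With the group means taken out, 8 of 14 correlations were above 0. The median of all 14 was 0.28, with a range from −0.47 (Pck1) to 0.75 (Lpl). These orders and correlations share the arrays, the groups and the array scaling. They are a description and no test of fat cell content.

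Endothelial markers, of which 11 were tested, had a median log2 change of 0.38 in obese rats on the drug, with 10 above 0 and 0 called. Those of smallest p were Tek, the angiopoietin receptor (0.56, adjusted p = 0.523), and Emcn, a surface sialoprotein (0.52, adjusted p = 0.62). Pecam1, an adhesion molecule of endothelium, had 1009, 748 and 748 in obese rosiglitazone rats, against 437, 838 and 567 in obese control rats (log2 change 0.47, SE 0.21, adjusted p = 0.979). Their summed signal was 12418 to 13864 in obese rosiglitazone rats, against 7689 to 12650 in obese control rats. In lean rats on the drug their median was 0.031, and on control diet it was −0.035 in obese against lean rats. Macrophage markers, 8 tested and with Itgam and Cd163 at background throughout, had a median of −0.23 in obese rats on the drug and of 0.24 in obese against lean rats on control diet, with 0 called in either. Their sums overlapped, at 5957 to 7363 in obese rosiglitazone rats and 6856 to 10492 in obese control rats. On control diet they did not overlap, at 6856 to 10492 in obese rats and 4893 to 6493 in lean rats. Lyz2 alone gave much of each of these sums, at 4209 to 6316 in obese and 2597 to 3793 in lean rats. A sum without Lyz2 was not taken, so the separation is not shown for the other macrophage markers. Cd68, a macrophage lysosome protein, had a log2 change of −0.26 on the drug (adjusted p = 0.999). The part of these cells in the Fabp4 and Fabp5 changes was not tested.

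Markers of the tissues that name other members were looked up too. Of 10 muscle genes 6 were at background throughout, including Ckm, Mb and Tnni3, while Fabp3 was bright on every array. Of the 2 muscle genes tested, 1 was called lower in obese rats on control diet and 1 on rosiglitazone. The gene called on control diet was Cox8b, which encodes a cytochrome c oxidase subunit also found in brown fat. On control diet it was lower in obese rats (adjusted p = 0.00125), which were at background for it, so the difference is given as a bound of at least 2.92-fold against the background limit. All of its signals in obese rats lay under the minimum for testing. Cox8b thus came into the test through the lean rats only, and its call is a description. Its signals were 31.6, 49.3 and 90.8 in obese rosiglitazone rats, 31.2, 32 and 24.7 in obese control rats, 1028, 2179 and 1080 in lean rosiglitazone rats and 387, 169 and 593 in lean control rats. Of 5 epidermal keratinocyte genes 2 were tested, Krt5 and Krt10, and 0 were called in any of the 4 group comparisons. Of the nerve and glia genes 3 were tested and 0 were called in these comparisons. Proximal tubule markers had a median log2 change of −0.11 in obese rats on the drug (0 of 13 called) and of −0.29 in obese against lean rats on control diet. There 3 of 13 were called lower, against 2.58% of all probe sets. Markers of the distal nephron had medians of 0.051 and 0.42, with 3 of 11 called higher on control diet, where 401 of all 18625 probe sets were. Podocyte markers, 4 tested, had medians of 0.14 and 0.72, with 0 called. In obese against lean rats on rosiglitazone, 6 of 13 proximal tubule markers were called lower (median −0.44), as were 484 of all 18625 probe sets. There 1 of 11 distal nephron markers was called higher, as were 448 of all probe sets.

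**Figure D4:**
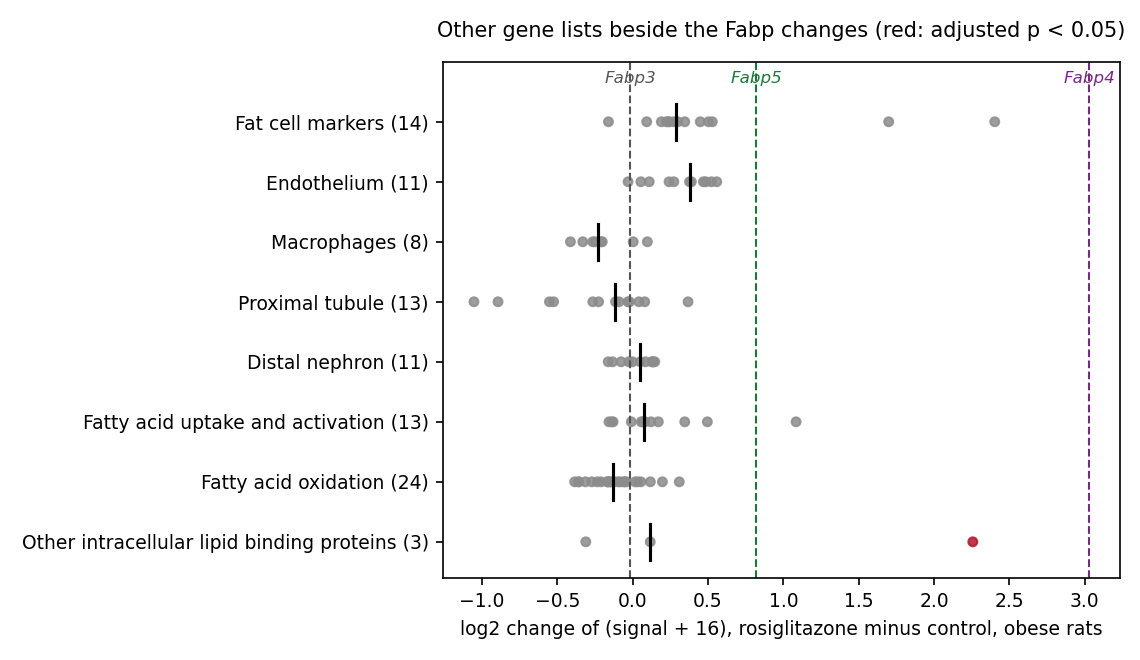
Log2 change of signal plus 16 in obese rats, rosiglitazone minus control, for the tested genes of 8 lists (number tested in brackets), 1 point per gene, with a black bar at the list's median and red where the adjusted p was under 0.05. Dashed lines mark Fabp3 (−0.016), Fabp5 (0.82) and Fabp4 (3.03), and the 1 red point is Rbp7 (2.26). Rbp7 was at background in obese control rats and passed the minimum for testing only through its signals on the drug.

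Relatives of the family and the steps before and after fatty acid binding were looked up next. Of 11 other intracellular lipid binding proteins, 9 were on the array, 6 were at background throughout (Fabp2, Fabp6, Fabp9, Fabp12, Pmp2 and Rbp2) and 3 were tested. Of these 3, Rbp7, a retinol binding protein of the same fold, was called higher in obese rats given the drug, with a fitted log2 change of 2.26 (limma adjusted p = 0.022). It had 326, 185 and 246 in obese rosiglitazone rats, against 45.1, 16.5 and 66.7 in obese control rats, which were at background, so the fitted change depends on the offset of 16 and is no measured fold. Against the background limit the rise was at least 2.12-fold. With 1 array left out, Rbp7 lost its call without obese rosiglitazone 3 (adjusted p = 0.123), obese control 1 (0.0761) or obese control 2 (0.104). It was under the minimum for testing without obese rosiglitazone 1 or any 1 lean rosiglitazone array. All of its control diet signals lay under that minimum, so only its signals on the drug brought it into the test. Its call is therefore a description and no separate test of the drug. In lean rats it had 566, 449 and 308 on the drug, against 91.6, 119.6 and 98.6 on control diet (log2 change 1.90, adjusted p = 0.0845).

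Of 13 tested genes of fatty acid uptake and activation, 0 were called in either body type on the drug, with medians of 0.076 in obese and 0.11 in lean rats. Cd36, the uptake receptor at the cell surface, had 746, 941 and 776 in obese rosiglitazone rats, against 300, 419 and 424 in obese control rats. It had 1030, 1034 and 718 in lean rosiglitazone rats, against 469, 260 and 372 in lean control rats. Within each body type the groups did not overlap, and over both body types Cd36 rose with rosiglitazone (log2 change 1.20, SE 0.15, limma adjusted p = 0.00518). Cd36 had no called difference between obese and lean rats on control diet (log2 change 0.075, SE 0.21, adjusted p = 0.893). On control diet Lpl, the lipase that frees fatty acids from lipoproteins, was the 1 of 13 called and was higher in obese rats (log2 change 0.75, SE 0.19, limma adjusted p = 0.0356).

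Of 24 tested genes of fatty acid oxidation, 0 were called on the drug. Their median log2 change was −0.13 in obese rats, with 6 above 0 and 18 below, and 0.084 in lean rats, with 20 above 0 and 4 below. On control diet 1 of 24 was called, Acadm, the medium chain acyl-CoA dehydrogenase, which fell by 0.39 in obese rats (limma adjusted p = 0.0317). On rosiglitazone 6 of 24 were called lower in obese rats, where 484 of all 18625 probe sets were, among them Acadl (log2 change −0.53, adjusted p = 0.00293) and Decr1 (−0.43, adjusted p = 0.0126), enzymes of the mitochondrion. Of the 7 tested nuclear receptors and partners, 0 were called on the drug. Pparg, the receptor of rosiglitazone, had 258, 227 and 257 in obese rosiglitazone rats, against 239, 149 and 220 in obese control rats (log2 change 0.29, SE 0.22, adjusted p = 0.999). Ppara, the related receptor of liver and muscle, lay below the filter, with group means of 30.7 ± 21.5 in obese rosiglitazone, 32.6 ± 27.0 in obese control, 73.6 ± 56.0 in lean rosiglitazone and 15.2 ± 5.52 in lean control rats (SD, n = 3 each). Hnf4a, a receptor of liver and proximal tubule, was called lower in obese rats on control diet (log2 change −0.39, adjusted p = 0.0143).

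Genes whose profile over the 12 arrays was most like that of each member were picked by Pearson's r of log2 values among 10523 other genes. For Fabp4 these were Hey1, a Notch target gene (r = 0.94), Scd2, a fatty acid desaturase (0.90), Rbp7 (0.90), Fabp5 (0.89) and Srebf1, a regulator of fat synthesis (0.88). With group means taken out, r was 0.88 for Hey1, 0.29 for Scd2, 0.032 for Rbp7, 0.58 for Fabp5 and 0.59 for Srebf1. All were picked for their likeness on these same arrays. Hey1 itself was not called with rosiglitazone in obese rats, at 0.46 on the log2 scale (SE 0.15, adjusted p = 0.669). Scd2 had other probe sets, which gave 1.13 (adjusted p = 0.309) and 0.84 (adjusted p = 0.706) in obese rats on the drug, where the one used here gave 0.98 (adjusted p = 0.0592).

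For Fabp5 the genes most like it were Tro (r = 0.95), Tec, a tyrosine kinase (0.91), Prrt1 (0.90), Fabp4 (0.89) and Phc1, a Polycomb protein (0.89). Tro had means of 651 ± 126 in obese rosiglitazone, 309 ± 26.4 in obese control, 841 ± 106 in lean rosiglitazone and 693 ± 62.5 in lean control rats (SD, n = 3 each). It was called higher in obese rats on the drug (log2 change 1.02, adjusted p = 0.022) and lower in obese rats on control diet (−1.13, adjusted p = 0.000747), as was Fabp5. Tro was picked for its likeness to Fabp5 on these same arrays, so its calls are no separate result. With group means taken out, r to Fabp5 was 0.69 for Tro, 0.43 for Tec, 0.87 for Prrt1, 0.58 for Fabp4 and 0.69 for Phc1. For Fabp3 the genes were Ssr1, a subunit of the translocon-associated complex (0.88), Plaat3, a phospholipase of fat cells (0.83), Sh3kbp1 (0.80), Mrpl22, a mitochondrial ribosomal protein (0.78), and Cpt1b, the muscle form of carnitine palmitoyltransferase (0.78). With group means taken out, r to Fabp3 was 0.69 for Ssr1, 0.70 for Plaat3, 0.65 for Sh3kbp1, 0.50 for Mrpl22 and 0.45 for Cpt1b. The r of Fabp3 to Fabp4 was 0.55, and 0.60 with group means taken out. Its r to Fabp5 was 0.28, and 0.17 with group means taken out. All of these correlations are over the same 12 arrays and are given as descriptions.

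**Figure D5:**
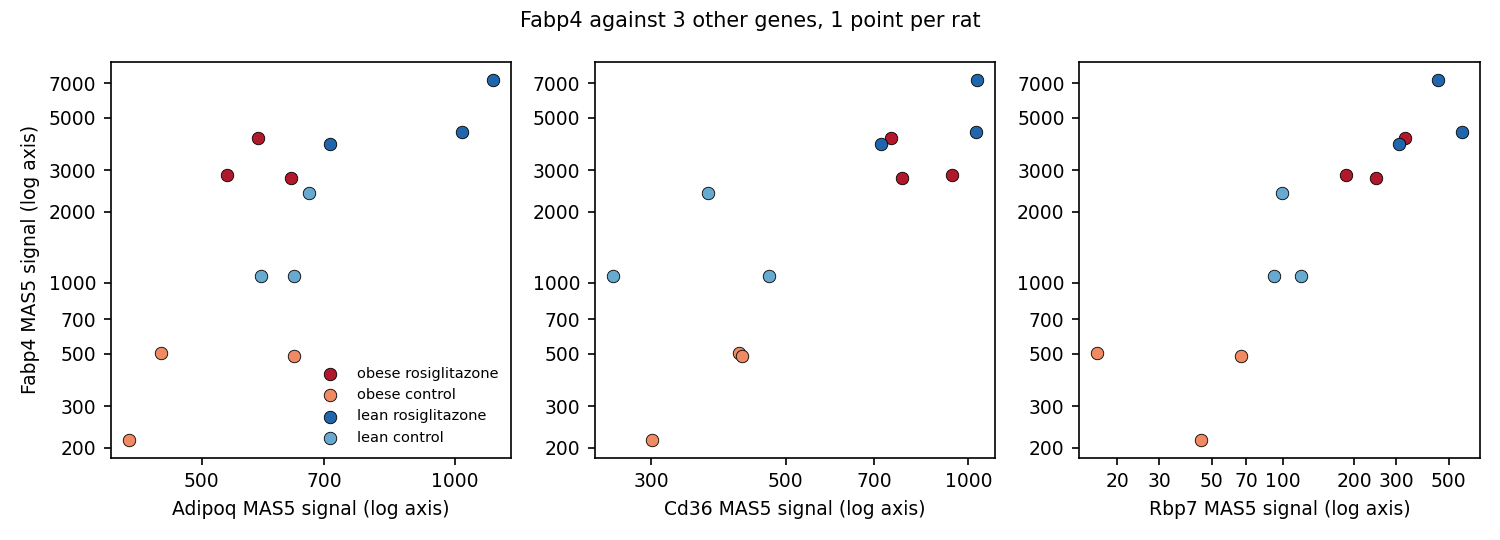
Fabp4 MAS5 signal (vertical, log axis) against the signals of Adipoq, Cd36 and Rbp7 (horizontal, log axes), with 1 point per rat coloured by group. Obese rosiglitazone and obese control rats are apart in Fabp4 (2776 to 4111 and 216 to 502). They are also apart in Cd36 (746 to 941 and 300 to 424) and Rbp7 (185 to 326 and 16.5 to 66.7, at background). Their Adipoq signals overlap (536 to 640 and 410 to 644).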

How the data were processed

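Trizol RNA from the kidneys of 12 rats was labelled with biotin by an Enzo kit, per the labels. The table deposited by the authors holds linear signal intensities, which the submitters' processing notes credit to MAS5 without a version. Scaling settings are not stated there. Trimmed means (2% off either end) were 500.12 to 500.15 on all arrays, so no further scaling was applied.

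The 57 array controls among 31099 probe sets were left out, signals were turned to log2 after adding 16, and probe sets averaging under 7.32, the 40th percentile, were dropped, leaving 18625. One limma model (limma 3.58.1, statmod 1.5.0, R 4.3.3, eBayes with trend and robust settings) held 4 group means for 12 arrays, with 8 residual degrees of freedom. Adjustment was by Benjamini-Hochberg over the 18625 probe sets in each of 7 comparisons. The fit was also run on simulated data with independent errors and changes in the obese rosiglitazone group only. That run does not test effects of array, cre class or cell content. Symbols came from GEO's platform annotation, with 1 symbol for 20826 probe sets, several for 436 and none for 9780. List genes were read from their probe set of highest mean. The text names all members, up to 4 called genes of a list by smallest p (or 2 where none was called), 7 genes always looked up, and the 5 genes most like each detected member. Umod, Impa1, Pag1, Zfp704, Pck1, Lyz2 and the members of small or undetected lists were named outside that rule. Start regions are from RefSeq, build GRCr8. The members, lists and tests were chosen with earlier results of these data known. Alternatives were other scalings, offsets and filters, plain eBayes, the compared groups alone, the cre class, a replicate block and leaving out each array. The sum without Pck1 and the repeat fits for Rbp7 were added after the data were seen.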

Additional observations from a re-analysis of the deposited data

How the results depend on the processing

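The number of members called in obese rats on the drug was 2, but 1 when limma's trend and robust settings were off, and 0 to 2 when 1 array was left out. For obese against lean rats on control diet it was 2, but 1 when the fit held the groups compared only, and 1 to 2 when 1 array was left out. For the drug over both body types it was 1, but 2 after quantile normalization, 2 with the cre class as a covariate and 1 to 2 when 1 array was left out. The cause of these shifts was not tested. Fits with an array left out also had fewer arrays, which was not told apart from the part of the array removed. For obese against lean rats on rosiglitazone, for the drug in lean rats, for the difference between body types and for obese against lean rats over both diets, the number (0, 0, 0 and 2) was the same in all alternatives run. Calls over all probe sets moved more. With 1 array left out they were 0 to 18 for the drug in obese rats (13 with all arrays), 327 to 1010 for obese against lean rats on control diet (882), 469 to 1039 on rosiglitazone (932), 1 to 5 for the drug in lean rats (1), 3 to 10 over both body types (11) and 0 to 4 for the difference (0). In obese rats on the drug they were 7 with no filter, 21 after quantile normalization, 30 with the compared groups alone and 34 with the cre class as a covariate.

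Signs turned for values near 0 that were not called. Fabp3 in obese against lean rats on control diet was −0.017 with arrays centred on their median and ranged from −0.032 to 0.11 when 1 array was left out. Fabp5 in obese against lean rats on rosiglitazone was 0.069 after quantile normalization and ranged from −0.15 to 0.047 when 1 array was left out. Fabp3 in obese rats on the drug was 5.94e-05 after quantile normalization and ranged from −0.090 to 0.047 when 1 array was left out. Within single cre classes, with no test, the sign also turned for Fabp3 in obese against lean rats on control diet (−0.083 in the higher class). It turned as well for Fabp5 in obese against lean rats on rosiglitazone (0.13 in the lower class). For Fabp5 in lean rats on the drug it turned in the lower class only (−0.041), where 1 rat stood against 1. Fabp4 and Fabp5 kept their direction in each comparison in which they were called.

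Replicate numbers in the titles repeat across groups, but the rats are separate animals. Deviations from the group means correlated with a median of 0.070 (−0.18 to 0.18) between same-numbered arrays and −0.023 (−0.22 to 0.21) between others, so the numbers were not taken as pairs. Among the arrays numbered 3, all in the lower cre class, every pair had r above 0 (0.064 to 0.18). Whether those arrays shared their handling was not tested. With the replicate block, Fabp4 in obese rats on the drug had adjusted p = 0.0412 and Fabp5 0.0412, Fabp4 in obese against lean rats on control diet had 0.0273, and the block changed no call of a member.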
